A study of Mus musculus with 17 samples.

Results

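The 47 genes described here encode proteins of mitosis and cytokinesis. They were chosen by symbol, with earlier results of these data known. Each of the 47 had 1 row in both count tables, which hold 43430 gene rows each. Expression was measured by RNA sequencing in alveolar type 2 cells, which make surfactant and renew the alveolar epithelium. The cells were sorted by flow from C57BL/6J mice, all 2 months old. In the poly(A) experiment, naive mice had received vehicle (libraries vehicle 1 to 4) or ISRIB (ISRIB 1 to 4) 24 h earlier. ISRIB is a small molecule that lets protein synthesis go on when the integrated stress response is active. In the total-RNA experiment, the mice were naive (naive 1 to 4) or had received bleomycin, which injures the alveolar epithelium, 14 days earlier (bleomycin 1 to 5). All 9 total-RNA libraries carry a vehicle or saline label, so neither of those groups had ISRIB. The labels name no transgene or mutation, give no dose, and do not tie each library to a mouse of its own, so p-values measure the spread between these libraries, which may be technical.

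Cyclin A and cyclin B switch on the kinase CDK1, which drives a cell into mitosis, while Aurora and Polo-like kinases build the spindle and condensins with topoisomerase II fold the chromosomes. The spindle checkpoint then holds back the anaphase-promoting complex until every kinetochore is attached, after which the central spindle marks where the daughter cells separate. Most of these genes are transcribed late in the cell cycle under B-MYB, FOXM1 and the MuvB complex, and in resting cells the DREAM complex represses them through a promoter element called CHR. Most type 2 cells of healthy adult lung are resting.

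Depth was 10493574 to 15727139 counts per poly(A) library and 3295257 to 6333166 per total-RNA library, of which ribosomal-RNA-like gene models took 15.7% to 29.2%. The biological coefficient of variation was 7.66% in the poly(A) experiment and 21.1% in the total-RNA experiment. Levels by library are given in counts per 1000000 counts of effective library size (CPM), and a gene was called at a Benjamini-Hochberg adjusted p under 0.05 in the quasi-likelihood test of edgeR over all genes tested. Alveolar type 2 markers were abundant in all 17 libraries and summed to between 53969 and 222371 CPM.

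Because the genes belong to a family with known promoter elements, RefSeq promoter windows of build GRCm38.p6 were searched, from 250 bases before to 50 bases after each start site. Windows were found for 41 of the 47 genes, and none was found for Ccna2, Smc4, Aurkb, Kif20a, Tpx2 and Foxm1. The CHR element TTTGAA, on either strand, was present in 31 of the 41 (75.6%), against 20.2% of all 27025 genes in the table. The variant TTTAAA was present in 7 (17.1%), against 14.9% of all genes. The CCAAT box was present in 29 (70.7%), against 41.1%. Both TTTGAA and CCAAT stood in 26 windows (63.4%), against 7.97%. Counted only where TTTGAA began between bases -50 and 45, a range chosen after the positions were seen, the shares were 28 of 41 (68.3%) and 5.72%. TTTAAA reads the same on both strands, no match to one motif is also a match to another, and a match shows only that these letters are in the window.

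The 120 bases before the start site are shown for 7 genes on which the expression results turn, 6 that were called higher after bleomycin and Bub1, which was not. They are written 5′ to 3′ on the gene's strand, with the CHR element, its variant and the CCAAT box in capitals, whichever strand they are on.
Cdk1 (chr10:69352913-69353032, minus strand): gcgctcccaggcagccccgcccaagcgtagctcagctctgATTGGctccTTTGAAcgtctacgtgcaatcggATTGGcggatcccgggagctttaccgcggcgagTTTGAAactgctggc
Plk1 (chr7:122159315-122159434, plus strand): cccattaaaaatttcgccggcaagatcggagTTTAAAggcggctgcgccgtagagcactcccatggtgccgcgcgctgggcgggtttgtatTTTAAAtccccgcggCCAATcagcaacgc
Cdc20 (chr4:118437344-118437463, minus strand): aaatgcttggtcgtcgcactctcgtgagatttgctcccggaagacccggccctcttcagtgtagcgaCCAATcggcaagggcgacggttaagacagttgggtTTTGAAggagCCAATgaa
Top2a (chr11:99024190-99024309, minus strand): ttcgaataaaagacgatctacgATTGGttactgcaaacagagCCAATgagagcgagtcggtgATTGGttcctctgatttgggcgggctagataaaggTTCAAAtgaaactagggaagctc
Kif11 (chr19:37376262-37376381, plus strand): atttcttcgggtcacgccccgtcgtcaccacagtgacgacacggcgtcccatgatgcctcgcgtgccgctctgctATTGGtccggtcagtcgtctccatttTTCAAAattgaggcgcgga
Mki67 (chr7:135716380-135716499, minus strand): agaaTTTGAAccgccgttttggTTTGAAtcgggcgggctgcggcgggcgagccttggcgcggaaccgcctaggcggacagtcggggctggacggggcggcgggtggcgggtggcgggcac
Bub1 (chr2:127831860-127831979, minus strand): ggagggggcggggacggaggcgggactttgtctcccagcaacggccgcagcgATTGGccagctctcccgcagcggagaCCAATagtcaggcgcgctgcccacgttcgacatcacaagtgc

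In Cdk1, Cdc20, Top2a and Kif11 a TTTGAA match lay close to the start site with a CCAAT box further upstream. Mki67 had its TTTGAA matches farther from the start, Plk1 held the variant TTTAAA upstream and a TTTGAA match after the start, and Bub1 held CCAAT boxes with neither CHR spelling.

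**Figure D1:**
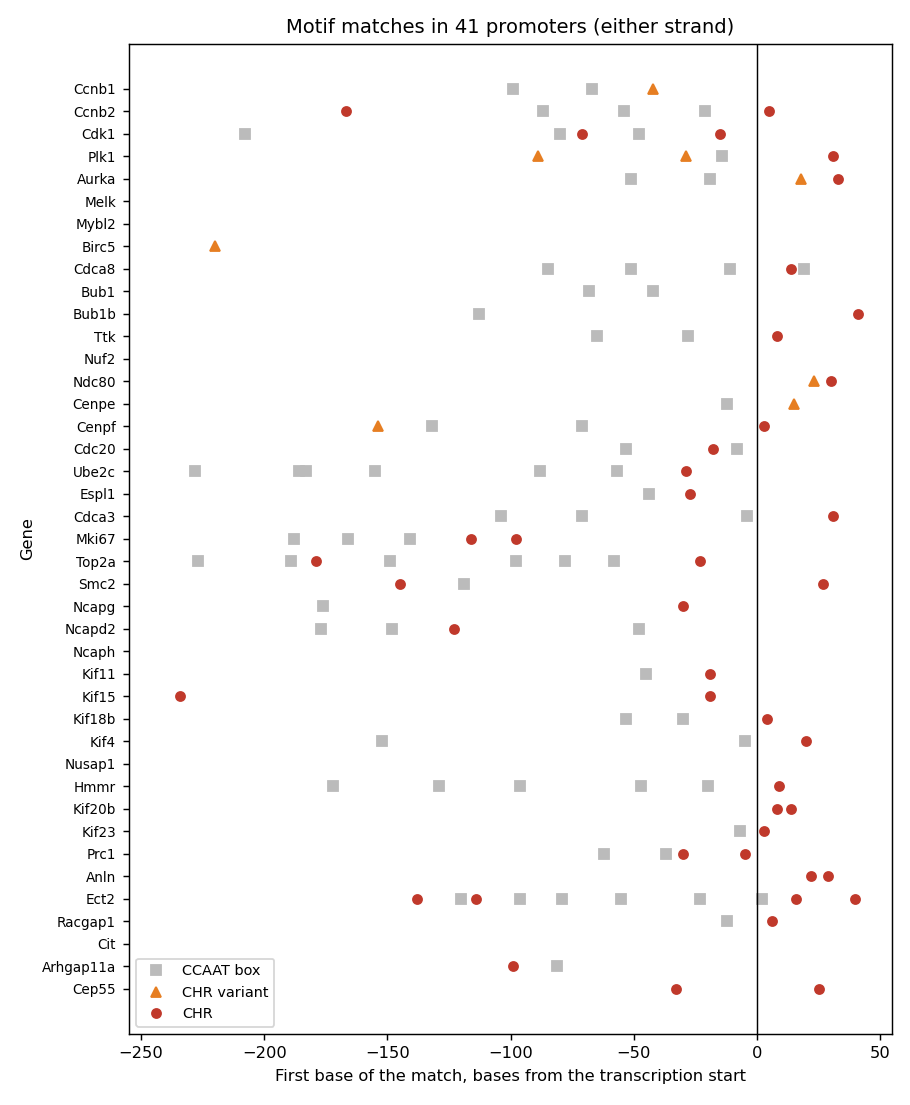
Matches to CCAAT (grey squares), TTTAAA (orange triangles) and TTTGAA (red circles) in the 41 promoter windows, one row per gene, with distance from the RefSeq start site in bases on the x axis. In 28 of the 41 windows a TTTGAA match begins between bases -50 and 45. Prc1, Ect2 and Cep55 have more than 1 listed start and show the matches of each.

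In the naive total-RNA libraries the 47 genes were low, and after bleomycin nearly all of them were higher. Their summed level was 191 CPM in naive 1, 213 in naive 2, 227 in naive 3 and 159 in naive 4, a mean of 197.5 ± 29.4 (SD, n = 4). After bleomycin it was 1076, 1333, 799, 1054 and 985 CPM in libraries 1 to 5, a mean of 1049 ± 193 (SD, n = 5), which is 5.31 times the naive mean. The groups did not overlap, and the lowest bleomycin library, bleomycin 3, was well above the highest naive library. These are bulk libraries, so more cells that express these genes and more of their RNA per cell cannot be told apart.

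Without a filter on low counts, 44 of the 47 genes were called higher and 0 lower, where 5.41% of 26897 genes were called higher and 4.22% lower. The unfiltered median log2 fold change of the 47 was 3.04. The exceptions were Bub1, Kif15 and Mybl2. With the filter, 41 genes were tested and 39 of them were called higher and 0 lower, against 11.2% and 9.31% of 11223 genes tested. Their median log2 fold change was 2.93, beside 0.0026 over all genes tested. Ccnb1, Mybl2, Aurkb, Ttk, Ncaph and Kif18b did not pass the filter. Of the 41 that passed, 30 had at least 1 naive library below the filter's level of 2.57 CPM, so they passed through the bleomycin libraries and their count carries no weight of its own. The median of 2.93 includes these 30 genes and carries the same limit. The other 11 genes (Bub1, Bub1b, Cenpe, Cenpf, Mki67, Top2a, Smc2, Smc4, Ncapd2, Kif15 and Prc1) were above that level in every naive library, and 9 of them were called higher. Log2 fold changes of these 11 ran from 0.15 for Bub1 to 3.94 for Mki67, and the middle value was that of Smc2, 1.92. Of the 41 tested genes, 35 were higher in every bleomycin library than in any naive library, against 10.4% of genes tested, and so were 5 of the 6 below the filter. The 35 include genes that passed through the bleomycin libraries, so this count carries the same limit. Of the 11 genes above the filter's level in every naive library, Bub1, Bub1b and Kif15 overlapped between groups and the others did not.

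**Figure D2:**
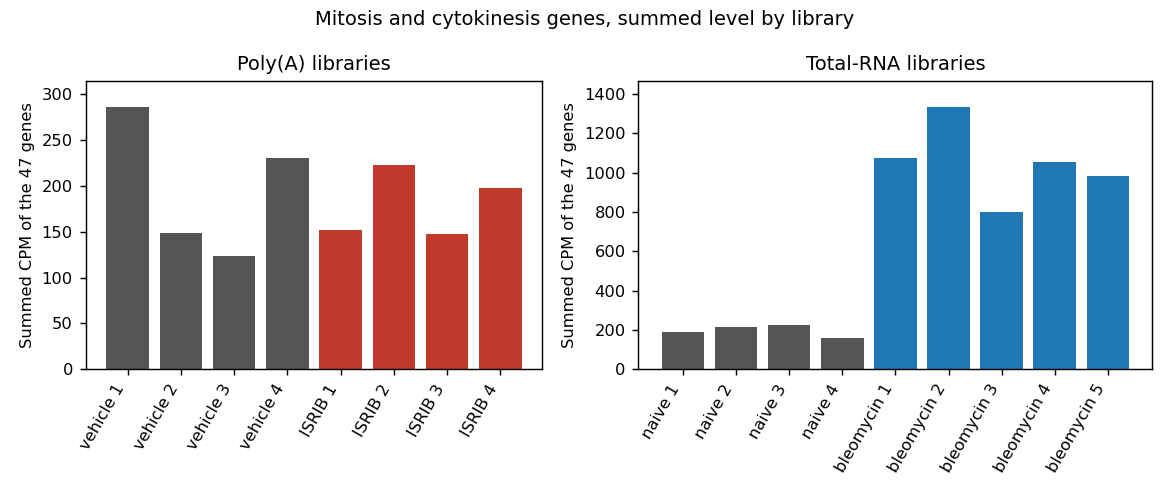
Summed CPM of the 47 genes (y axis) in each library (x axis), with the 8 poly(A) libraries on the left and the 9 total-RNA libraries on the right, each bar 1 library. The vehicle and ISRIB bars overlap, between 124 and 286 CPM, while the bleomycin bars, from 799 to 1333 CPM, all stand above the naive bars, from 159 to 227 CPM. The panels have different kits and y scales.

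Called log2 fold changes ran from 0.70 for Smc4 to 4.45 for Melk, and 32 were at least 2 and 20 at least 3. By role, the genes called higher of those tested were 6 of 6 cyclins and mitotic kinases, 1 of 1 transcription factors, 2 of 2 chromosomal passenger genes, 5 of 6 kinetochore and checkpoint genes and 4 of 4 anaphase genes. Among the rest they were 6 of 6 chromosome structure genes, 5 of 6 spindle motor and microtubule genes and 10 of 10 central spindle and cytokinesis genes. Over all genes tested, 11.2% were called higher. Of the 41 genes tested, 30 had at least 1 naive library below the filter's level. Their part in these counts, by role or by size of fold change, carries no weight of its own. The simulated test at this design recovered 183 of 183 changes of 3 on the log2 scale and 132 of 190 (69.5%) of 1. Both shares are over genes of all abundances and leave out changed genes that failed the filter.

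**Figure D3:**
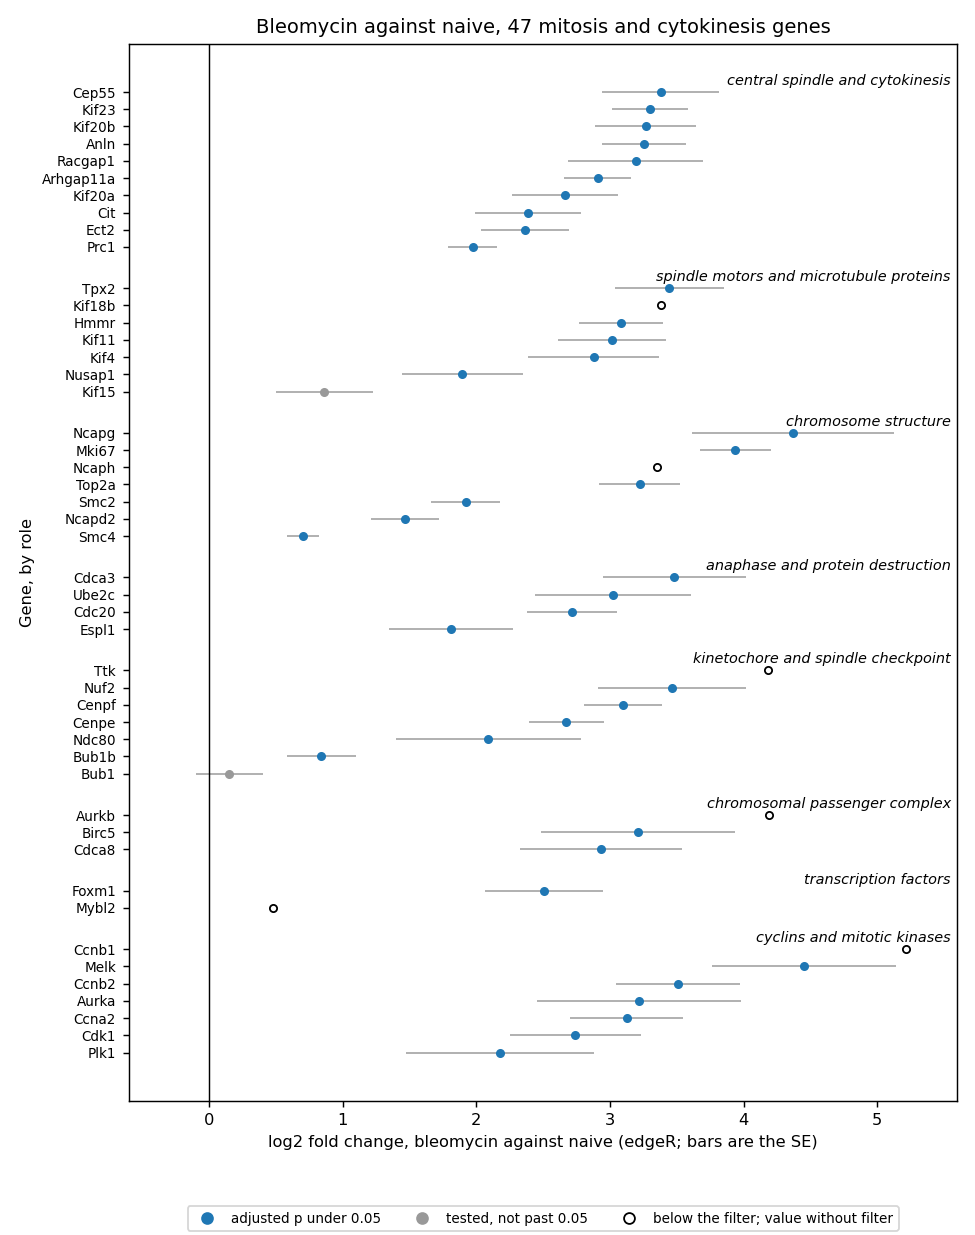
Log2 fold change of bleomycin against naive (x axis) for each of the 47 genes (y axis, grouped by role), with the SE as a bar. Blue points passed an adjusted p of 0.05, the 2 grey points (Bub1 and Kif15) did not, and open circles are the 6 genes below the filter, placed at their unfiltered value with no error shown. All points lie to the right of 0, from 0.15 for Bub1.

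Among the cyclins and mitotic kinases, Cdk1, the kinase that starts mitosis (chr10:69335146-69352938), was at 1.34, 0.855, 2.10 and 0.894 CPM in naive 1 to 4. After bleomycin it was at 7.41, 14.1, 9.45, 3.09 and 8.71 CPM in libraries 1 to 5, which gives 2.74 on the log2 scale (SE 0.49, adjusted p = 0.000605). The groups did not overlap, and bleomycin 4 was the lowest bleomycin library, with 10 counts. Ccnb2, a B-type cyclin, rose from 0.671, 1.28, 0.300 and 0.894 CPM to 6.88, 13.7, 7.12, 9.28 and 11.1 CPM (log2 fold change 3.51, SE 0.46, adjusted p = 3.06e-05). Its bleomycin libraries were all above its naive libraries. Ccnb1, the main mitotic cyclin, had 1 count in all naive libraries together and 94 in all bleomycin libraries. In CPM the values were 0.335 in naive 1, 0 in naive 2 to 4, and 2.12, 7.76, 2.94, 2.78 and 2.38 after bleomycin. Scaled to library size, the ratio was 53.3, with a 95% exact interval of 9.33 to 2125 that covers counting error only, and the gene was called only without the filter (adjusted p = 2.12e-05).

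Melk, a kinase of proliferating cells, had the largest log2 fold change among tested members, 4.45 (SE 0.69, adjusted p = 0.000129). Its levels were 0, 0.427, 0.300 and 0.298 CPM in naive libraries and 6.35, 13.2, 4.80, 4.33 and 4.28 CPM after bleomycin. Every bleomycin library was above the naive ones, and bleomycin 2 was the highest. Plk1, the Polo-like kinase of spindle assembly, was at 2.01, 0, 1.20 and 0.596 CPM in naive libraries and 3.97, 5.23, 5.27, 0.928 and 4.59 CPM after bleomycin. Here the groups overlapped, because bleomycin 4 held 3 counts and lay below 2 naive libraries. Plk1 was called (log2 fold change 2.18, SE 0.70, adjusted p = 0.0316), but the call was lost without naive 2, naive 3 or naive 4 (adjusted p of 0.102, 0.0713 and 0.111). Aurka, the spindle-pole Aurora kinase, also overlapped through bleomycin 4, at 0.619 CPM and 2 counts, and was called at 3.22 (SE 0.76, adjusted p = 0.00493). In the same library Ccna2, cyclin A, was at its highest, 16.7 CPM.

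Of the transcription factors, Foxm1, an activator of late cell-cycle genes (chr6:128362967-128376146), was at 5.03, 1.71, 1.20 and 2.38 CPM in naive libraries. It rose to 14.8, 22.7, 8.52, 6.50 and 18.5 CPM after bleomycin (log2 fold change 2.51, SE 0.44, adjusted p = 0.00057). The lowest bleomycin library was above the highest naive one. Mybl2, which encodes B-MYB, had 17 naive and 42 bleomycin counts in all. Its levels, 0.641 to 2.01 CPM and 1.32 to 2.48 CPM, overlapped, and it did not pass without the filter either (log2 fold change 0.48, adjusted p = 0.724).

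The chromosomal passenger complex corrects faulty kinetochore attachments and later acts at the central spindle. Birc5, its survivin subunit, was at 0.671, 0, 1.80 and 1.19 CPM in naive libraries and at 2.12, 8.12, 6.50, 20.1 and 5.07 CPM after bleomycin. The groups did not overlap (log2 fold change 3.21, SE 0.73, adjusted p = 0.00388), with bleomycin 1 low and bleomycin 4 high. Aurkb, its kinase, had 2 naive and 71 bleomycin counts in all. Those were 0.427 CPM in naive 2 and 0 in the other naive libraries, against 5.03, 3.25, 2.48, 1.86 and 1.90 CPM, a ratio of 20.1 with a 95% counting interval of 5.37 to 169. It was called only without the filter (adjusted p = 0.00103). Cdca8, which encodes borealin, rose by 2.93 on the log2 scale (SE 0.61, adjusted p = 0.00192).

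At the kinetochore, Cenpf, a large outer-kinetochore protein, rose from 5.70, 7.48, 13.2 and 2.98 CPM to 63.7, 90.2, 44.8, 54.8 and 62.9 CPM (log2 fold change 3.10, SE 0.29, adjusted p = 9.95e-07). Every bleomycin library was several times the highest naive library. Nuf2, a subunit of the microtubule-binding NDC80 complex, rose from 1.68, 0.214, 0.901 and 0.298 CPM to 5.82, 8.30, 5.88, 12.995 and 8.39 CPM (log2 fold change 3.46, SE 0.55, adjusted p = 0.000199). Its partner Ndc80 was uneven in naive libraries, at 0, 2.78, 1.20 and 0 CPM, and was called at 2.09 (SE 0.69, adjusted p = 0.037). That call was lost without naive 1, naive 3, naive 4 or bleomycin 1, at adjusted p values of 0.105, 0.0881, 0.1097 and 0.0629. Ttk, the checkpoint kinase MPS1, had 2 naive and 66 bleomycin counts, a ratio of 18.7 (95% counting interval 4.97 to 158).

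The BUB genes of the checkpoint had the smallest log2 fold changes of the kinetochore genes tested. Bub1, the checkpoint kinase (chr2:127801122-127831865), was at 15.4, 13.7, 21.02 and 14.0 CPM in naive libraries and at 17.2, 13.5, 15.5, 30.0 and 13.9 CPM after bleomycin. The groups overlapped and the gene was not called (log2 fold change 0.15, SE 0.25, adjusted p = 0.719), although it had 227 naive and 425 bleomycin counts. Without bleomycin 4 its log2 fold change was -0.088. Bub1b, which encodes BUBR1, was at 13.1, 8.76, 8.11 and 10.4 CPM in naive libraries and 22.7, 23.3, 14.2, 10.52 and 18.8 CPM after bleomycin. It was called at 0.84 (SE 0.26, adjusted p = 0.0274), and the call was lost without naive 2, 3 or 4 or bleomycin 1, 2 or 5 (adjusted p from 0.0502 to 0.0918).

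All 4 anaphase genes were called higher, against 11.2% of all genes tested, and each had at least 1 naive library below the filter's level. Cdca3, which helps destroy the mitosis inhibitor WEE1, rose from 1.68, 0.427, 0.601 and 0.894 CPM to 6.35, 18.9, 5.42, 10.52 and 7.92 CPM (log2 fold change 3.48, SE 0.54, adjusted p = 0.000152). Cdc20, the activator of the anaphase-promoting complex, was at 3.02, 1.92, 3.30 and 4.17 CPM in naive libraries and 15.9, 33.6, 19.4, 12.1 and 19.3 CPM after bleomycin (log2 fold change 2.72, SE 0.34, adjusted p = 1.86e-05). Ube2c, the conjugating enzyme of that complex, was called at 3.02 (SE 0.58). Espl1, the separase that cuts cohesin, was called at 1.81 (SE 0.47). In Cdc20, Ube2c and Cdca3 bleomycin 2 was the highest library, and no bleomycin library overlapped the naive ones.

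Chromosome structure genes were called higher in 6 of 6 cases tested, against 11.2% of all genes tested. All of these but Ncapg were above the filter's level in every naive library. Mki67, whose protein coats mitotic chromosomes (chr7:135689784-135716361), was at 7.38, 22.9, 20.4 and 9.54 CPM in naive libraries and at 272, 300.5, 153, 228 and 235 CPM after bleomycin. Its log2 fold change, 3.94 (SE 0.27), had the lowest adjusted p among the 47 genes, 7.15e-08. Mki67 alone made up 19.1% to 25.3% of the summed CPM of the 47 genes in the bleomycin libraries. Top2a, the topoisomerase that untangles sister chromatids, rose from 3.35, 14.7, 10.2 and 3.87 CPM to 69.0, 81.4, 61.2, 113 and 72.8 CPM (log2 fold change 3.22, SE 0.30, adjusted p = 9.95e-07). In both genes naive 2 and naive 3 were the higher naive libraries, and every bleomycin library lay far above them.

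Fold changes of the condensin subunits ranged widely. Ncapg, a subunit of condensin I, rose from 0, 0.427, 0.601 and 0 CPM to 6.35, 9.02, 2.01, 4.95 and 8.87 CPM (log2 fold change 4.37, SE 0.76, adjusted p = 0.000372), on 4 naive counts. Ncapd2 of the same complex was called at 1.47 (SE 0.25), and Smc2, an ATPase core subunit, at 1.92 (SE 0.26). Smc4, the other core ATPase, was at 58.7, 54.1, 48.9 and 44.4 CPM in naive libraries and 82.5, 83.2, 77.6, 86.6 and 89.5 CPM after bleomycin. The groups did not overlap, and the spread was narrow, which gave its small log2 fold change of 0.70 an SE of 0.12 and an adjusted p of 0.000454.

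Among spindle motors and microtubule proteins, Tpx2, the activator of Aurora A, rose from 1.34, 0.855, 3.00 and 2.68 CPM to 20.1, 38.4, 13.3, 17.0 and 16.6 CPM (log2 fold change 3.45, SE 0.41, adjusted p = 1.1e-05). Kif11, the motor that pushes spindle poles apart, was called at 3.02 (SE 0.41). Hmmr, a spindle-pole protein, was called at 3.08 (SE 0.31). Kif15, a motor with a role that overlaps that of Kif11, was at 4.70, 6.84, 4.80 and 5.96 CPM in naive libraries and 15.1, 10.6, 4.65, 15.5 and 6.49 CPM after bleomycin. Its groups overlapped through bleomycin 3 and bleomycin 5, and it was not called (log2 fold change 0.86, SE 0.37, adjusted p = 0.104). Without bleomycin 3 it was called at 1.07 (adjusted p = 0.0335).

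Central spindle and cytokinesis genes were called higher in 10 of 10 cases, with no overlap between groups in any of them. Over all genes tested, 11.2% were called higher and 10.4% were higher without overlap. Only Prc1 of these genes was above the filter's level in every naive library, so the count carries no weight of its own. Kif23 and Racgap1 form centralspindlin, which bundles the central spindle. Kif23 rose from 3.02, 4.06, 3.60 and 2.38 CPM to 43.1, 40.96, 19.8, 33.7 and 27.6 CPM (log2 fold change 3.30, SE 0.28, adjusted p = 5.47e-07). Racgap1 rose from 0.335, 0.855, 3.60 and 1.19 CPM to 13.8, 26.2, 10.53, 8.97 and 9.03 CPM (log2 fold change 3.19, SE 0.51, adjusted p = 0.000211). Bleomycin 2 was high for Racgap1 and near bleomycin 1 for Kif23. Prc1, the protein that crosslinks central spindle microtubules, was very even in naive libraries, at 10.4, 9.83, 9.91 and 9.84 CPM. After bleomycin it was at 45.2, 44.8, 33.6, 30.9 and 41.5 CPM (log2 fold change 1.97, SE 0.18, adjusted p = 9.95e-07).

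Arhgap11a, a regulator of cytokinesis, rose from 2.68, 5.34, 6.31 and 2.98 CPM to 37.0, 38.1, 28.0, 34.3 and 29.1 CPM (log2 fold change 2.91, SE 0.25, adjusted p = 5.47e-07). Cit, the citron kinase of the midbody, rose from 2.68, 2.99, 4.504 and 1.19 CPM to 24.6, 19.5, 10.7, 8.35 and 12.2 CPM (log2 fold change 2.39, SE 0.40, adjusted p = 0.00031). For Cit the bleomycin libraries spread widely, with bleomycin 1 highest and bleomycin 4 lowest. Kif20b, a cytokinesis motor, rose from 1.34, 2.99, 1.501 and 0.894 CPM to 16.1, 15.9, 17.5, 26.9 and 10.6 CPM (log2 fold change 3.27, SE 0.38, adjusted p = 8.72e-06). Cep55, which recruits the abscission machinery, rose from 1.34, 1.07, 1.80 and 0.298 CPM to 8.46, 19.3, 10.7, 9.28 and 11.4 CPM (log2 fold change 3.38, SE 0.44, adjusted p = 2.87e-05). Anln, Ect2 and Kif20a, an actin scaffold, an activator of cleavage furrow formation and a motor, were called at 3.26, 2.36 and 2.67.

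Levels can be compared between genes only per length, so CPM per kilobase of exon were used within the total-RNA kit. In naive libraries Smc4 ranked first at 9.89 ± 1.19 (SD, n = 4), followed by Bub1 at 3.68 ± 0.78, Bub1b at 2.36 ± 0.52, Cdc20 at 1.66 ± 0.50 and Mki67 at 1.496 ± 0.77. Smc4 stood clear of the others, and each later gene in this order lay within 2 SD of the one before. After bleomycin Mki67 ranked first at 23.6 ± 5.54 (SD, n = 5), then Smc4 at 16.1 ± 0.86, Cdc20 at 10.7 ± 4.36 and Top2a at 8.81 ± 2.21, while Bub1 stood at rank 13 and Bub1b at rank 11. Smc4, Bub1 and Bub1b, with the 3 highest naive levels per length, also had 3 of the 5 smallest fold changes without the filter, beside Kif15 and Mybl2.

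**Figure D4:**
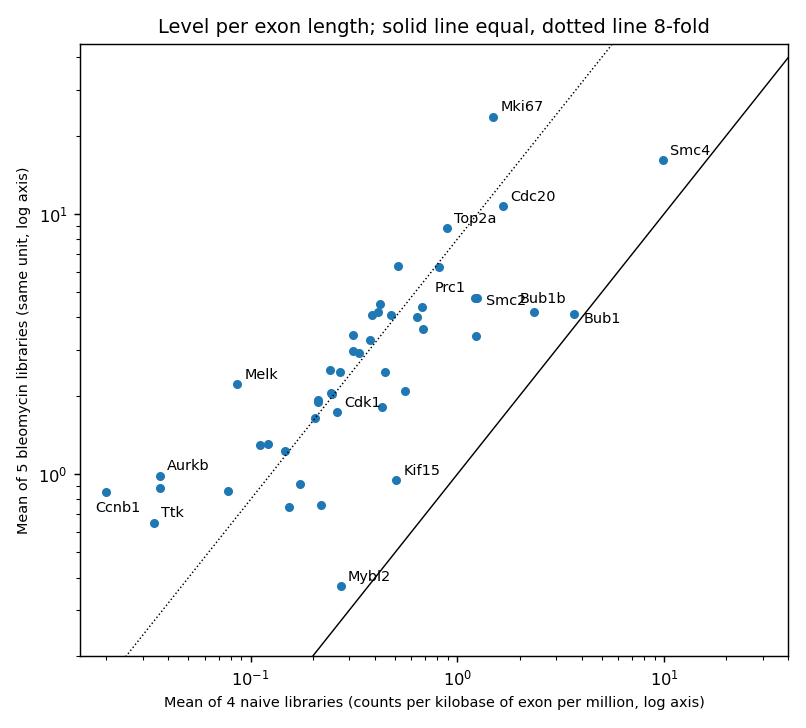
Mean level per kilobase of exon in the 4 naive libraries (x axis, log scale) and in the 5 bleomycin libraries (y axis, log scale), 1 point per gene, in CPM per kilobase. The solid line marks equal levels and the dotted line 8 times the naive level. Bub1 and Mybl2 lie near the solid line, Smc4 lies just above it, and Mki67 at 23.6 is the highest point.

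Other genes of the cell cycle were read from lists that include none of the 47. Over all genes tested, 11.2% were called higher and 9.31% lower. Genes of these lists that passed the filter through the bleomycin libraries were not set apart, so their counts carry the same limit. Of 74 further mitosis genes, 54 were tested and 29 were called higher and 0 lower, with a median log2 fold change of 1.31. The lowest p values were those of Knl1 and Sgo2a, a kinetochore scaffold and a guardian of centromeric cohesion (3.08 and 2.67), Nek2, a centrosome kinase (3.25), Iqgap3 (2.32), Ckap2l (3.31) and the condensin II subunit Ncapg2 (1.85). Of 27 DNA replication genes, 23 were tested and 14 were called higher and 0 lower (median 0.99), among them Mcm3 at 2.30, Rrm2 at 3.09 and Uhrf1 at 3.03. Of 10 CDK inhibitors and D cyclins, 4 of 9 tested were called higher, Cdkn1a, the p21 inhibitor, at 2.29, Ccnd1 at 1.30, Ccnd3 at 0.42 and Cdkn2c at 1.55.

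Cohesin and DREAM genes encode proteins that also act outside mitosis. Over all genes tested, 20.5% were called in either direction. Of 10 cohesin genes, Stag2 was called lower (-0.52) and Rad21 higher (0.36), and the median of the 10 was -0.11. Of 12 DREAM and Rb genes, which include repressors of late cell-cycle genes, Rbl2 was called lower, from 74.7 ± 4.61 to 46.8 ± 14.3 CPM (log2 fold change -0.66, SE 0.18, adjusted p = 0.0134), and the other 11 were not called.

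Markers of other cell types moved to different degrees between the same libraries. Of 10 fibroblast markers, 3 of 4 tested were called higher (Col1a1 3.89, Col3a1 2.35, Col1a2 2.72) and their summed level was 5.66 to 15.8 CPM in naive and 18.6 to 125 CPM in bleomycin libraries, with Lum at 0 throughout. In bleomycin 1 to 5 the fibroblast markers summed to 60.8, 125, 18.6, 31.6 and 27.1 CPM. The sums of the 47 genes put these libraries in the same order, with bleomycin 2 highest and bleomycin 3 lowest. Of 16 macrophage and monocyte markers, 1 of 4 tested was called higher (Cd14) and 1 lower (Lyz1), with sums of 698 to 870 and 282 to 748 CPM and with Marco and C1qa at 0. Most of these sums was Lyz1, and the other 15 markers summed to 17.3 to 31.2 CPM in naive and 42.0 to 73.4 CPM in bleomycin libraries. Lymphocyte markers (0 of 1 tested called by edgeR, 0 at an unadjusted p under 0.05, Cd3d, Ms4a1 and Trac at 0) summed to 2.09 to 8.76 and 1.32 to 9.59 CPM. Endothelial markers (2 of 6 tested called higher, Vwf and Cdh5) summed to 22.4 to 36.2 and 25.7 to 84.9 CPM, and airway markers (1 of 6 called higher, Foxj1) to 485 to 961 and 555 to 994 CPM. Alveolar type 2 markers summed to 90470 to 99673 CPM in naive and 53969 to 100776 CPM in bleomycin libraries, with Sftpd and Napsa called higher and Nkx2-1 and Etv5 lower. In bleomycin 1 to 5 they summed to 53969, 63588, 100776, 82680 and 88506 CPM. These sums were lowest in bleomycin 1 and 2, which had the highest sums of the 47 genes, and highest in bleomycin 3. The part of these cells in the levels of the 47 genes was not tested.

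Within the groups of the total-RNA experiment, the genes varied together only weakly. Over pairs of the 41 tested genes, the median correlation of log2 CPM after subtracting group means was 0.21 across 9 libraries, beside -0.001 over pairs of all genes tested, and 23.5% of the pairs exceeded 0.5, beside 13.3% of all pairs. All points come from the same 9 libraries, and low counts limit such correlations. Bleomycin 4 shows the unevenness, with Cdk1, Plk1 and Aurka at their lowest bleomycin levels and Ccna2, Birc5, Nuf2 and Top2a at their highest. The low levels rest on 10, 3 and 2 counts. Bleomycin 4 had the fewest counts of the bleomycin libraries, 3299824, and the fewest genes detected of the 9 libraries, 13940. The part of library depth in this was not tested.

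In the poly(A) experiment, none of the 47 genes was called after ISRIB. The summed level was 286, 148, 124 and 231 CPM in vehicle 1 to 4 (mean 197.3 ± 74.8, SD, n = 4) and 152, 222, 147 and 198 CPM in ISRIB 1 to 4 (mean 180.0 ± 36.6, SD, n = 4). Both the highest and the lowest library were vehicle libraries, so the ISRIB range lay inside the vehicle range. Of the 47 genes 41 passed the filter, and Mybl2, Ttk, Nuf2, Ndc80, Ncapg and Kif18b did not. EdgeR called 0 of the 41, DESeq2 0 and limma-voom 0, where edgeR called 2.2% of 12054 genes tested. At an unadjusted p under 0.05 there was 1 gene, Cdc20, against 16% of all genes tested. None of the 47 had groups that did not overlap, against 8.65% of genes tested.

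Log2 fold changes of the 41 ran from -0.62 for Birc5 to 0.28 for Ect2, with 31 below and 10 above 0, where 50% of all genes tested were above 0. The median was -0.14, beside -0.000137 over all genes. That sign rested on vehicle 1, without which the median was 0.19. Standard errors ran from 0.085 for Smc4 to 0.61 for Birc5, so for Birc5 a change of 1 on the log2 scale would be less than 2 standard errors. The simulated test at this design recovered 178 of 197 (90.4%) changes of 1 over genes of all abundances that passed the filter.

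**Figure D5:**
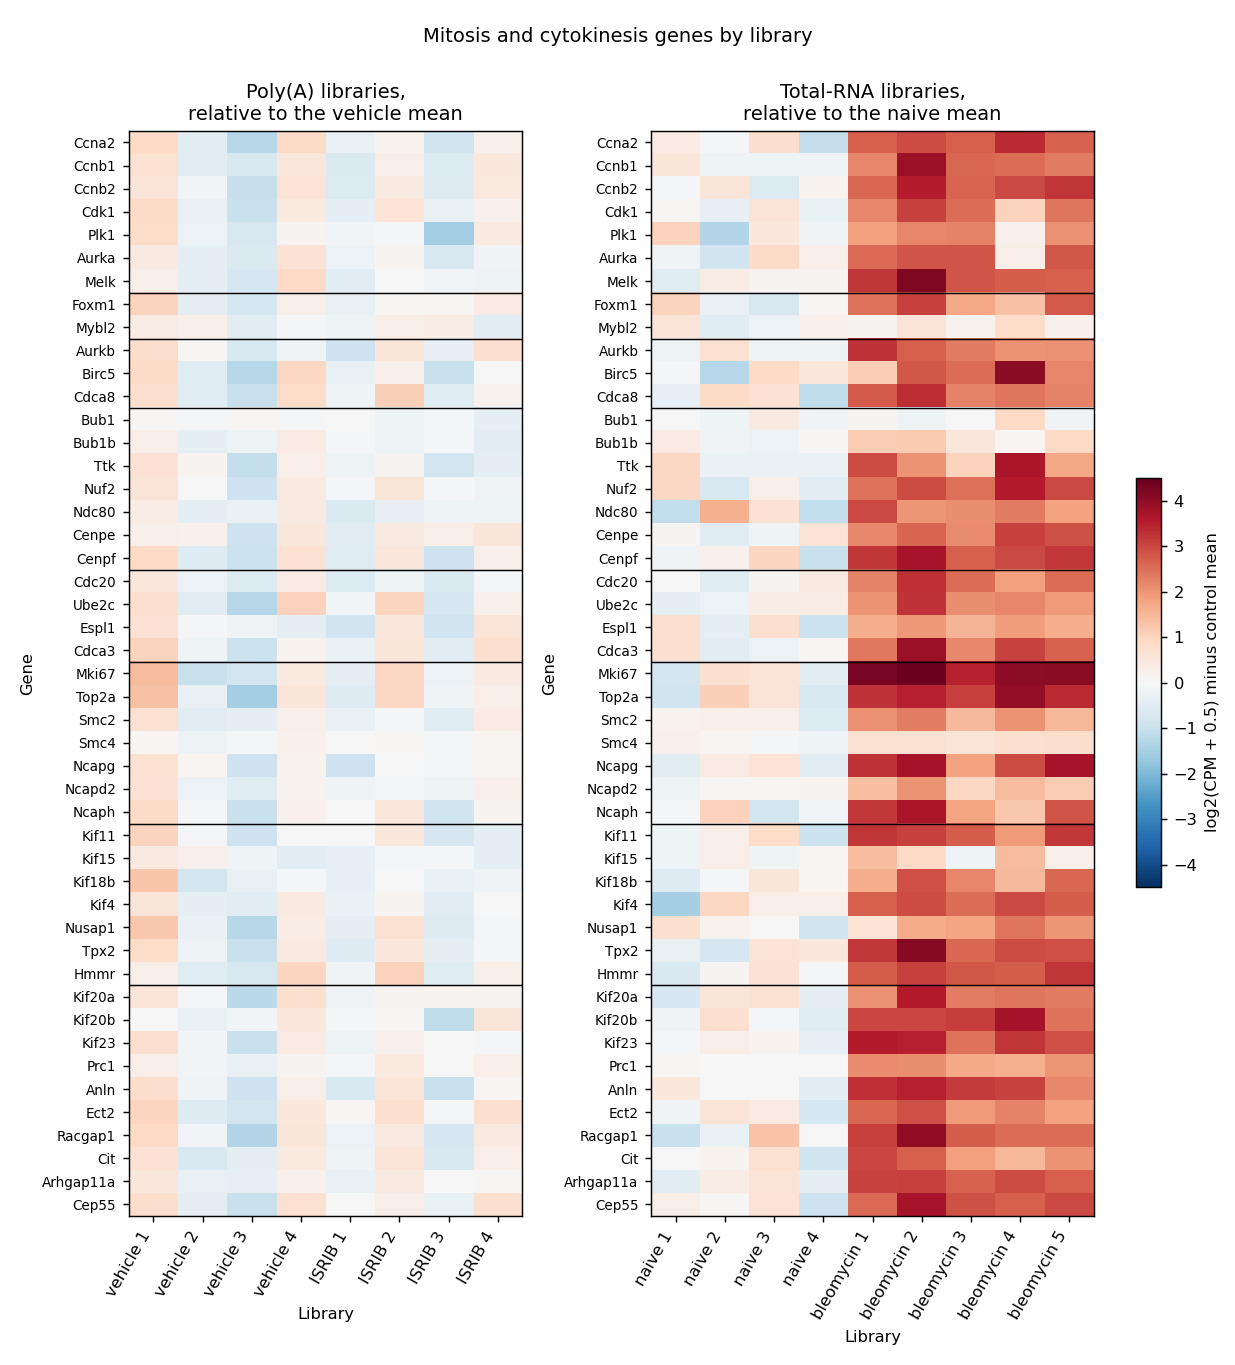
Log2(CPM + 0.5) of each of the 47 genes (rows, grouped by role) in each library (columns), minus the mean of the vehicle libraries (left) or of the naive libraries (right), with red higher and blue lower. On the left, vehicle 1 is red and vehicle 3 blue for most genes, and neither group stands apart. On the right, the 5 bleomycin columns lie above the naive mean for every gene except Bub1, which is below it in 3 of them, and Kif15, which is below it in 1.

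Cdc20 came closest to the threshold, at 15.3, 8.86, 6.88 and 13.8 CPM after vehicle and 6.77, 8.97, 6.71 and 10.002 CPM after ISRIB. Vehicle 1 and vehicle 4 were above every ISRIB library and the other vehicle libraries were not. Its log2 fold change was -0.45 (SE 0.21, adjusted p = 0.306), and without the filter on low counts it was called lower (adjusted p = 0.0326), where 1.48% of 22120 genes were. Cdk1 was at 4.73, 1.81, 0.918 and 3.40 CPM after vehicle and 1.66, 3.84, 1.79 and 2.81 CPM after ISRIB (log2 fold change -0.075, SE 0.40, adjusted p = 0.956). Ccnb1 was at 2.02, 0.633, 0.459 and 1.75 CPM and at 0.511, 1.44, 0.537 and 1.67 CPM (-0.20, SE 0.50). Both cell-cycle engine genes varied more within a group than between groups. Plk1 was at 3.07, 1.18, 0.721 and 1.65 CPM and at 1.34, 1.44, 0.179 and 2.11 CPM (-0.34, SE 0.49). Melk was at 1.32, 0.633, 0.393 and 2.33 CPM and at 0.575, 1.04, 0.894 and 0.790 CPM (-0.45, SE 0.48). Foxm1 was at 5.09, 1.54, 1.11 and 2.81 CPM and at 1.72, 2.40, 2.42 and 3.07 CPM (-0.12, SE 0.37). In all 3 the vehicle range enclosed or reached past most ISRIB values.

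The chromosomal passenger genes were low and scattered. Birc5 was at 2.28, 0.543, 0.131 and 2.43 CPM after vehicle and 0.702, 1.28, 0.268 and 1.05 CPM after ISRIB (-0.62, SE 0.61). Aurkb was at 2.02, 0.995, 0.393 and 0.776 CPM and at 0.255, 1.60, 0.626 and 1.93 CPM (0.070, SE 0.55). Cdca8 was at 1.75, 0.452, 0.197 and 1.94 CPM and at 0.702, 2.40, 0.447 and 1.05 CPM (0.15, SE 0.59). In each of them vehicle 3 lay at or near the bottom. At the kinetochore, Cenpf was at 5.35, 1.63, 1.11 and 4.46 CPM and at 1.66, 4.004, 1.16 and 3.25 CPM (-0.29, SE 0.44), and Cenpe, a kinetochore motor, had 59 vehicle and 74 ISRIB counts (0.23, SE 0.42). Cdca3 had 53 and 60 counts (0.078, SE 0.53).

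Mki67 was at 16.045, 2.62, 2.95 and 7.96 CPM after vehicle and 4.15, 11.4, 4.74 and 7.72 CPM after ISRIB (-0.064, SE 0.43). Top2a was at 21.2, 6.33, 2.49 and 11.9 CPM and at 5.24, 15.9, 7.16 and 9.83 CPM (-0.12, SE 0.43). Vehicle 1 was the highest library of both genes and vehicle 2 or vehicle 3 the lowest, a range of 6.12 times for Mki67 and 8.52 times for Top2a. Smc4 was at 35.7, 28.4, 32.1 and 37.8 CPM after vehicle and 33.2, 34.7, 31.8 and 35.4 CPM after ISRIB (0.014, SE 0.085), and its highest library was only 1.33 times its lowest. Bub1 was as even, at 18.1, 17.1, 18.4 and 16.8 CPM after vehicle and 17.8, 14.8, 16.5 and 13.2 CPM after ISRIB (-0.17, SE 0.10). Smc2 spanned 2.54 times (-0.18, SE 0.26).

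Of the microtubule genes, Nusap1, a spindle-associated protein, was at 5.96, 1.72, 0.656 and 3.01 CPM and at 1.53, 3.92, 1.34 and 2.193 CPM (-0.30, SE 0.48). Hmmr was at 1.67, 0.724, 0.590 and 3.01 CPM and at 1.09, 3.20, 0.716 and 1.67 CPM (0.21, SE 0.49). Neither separated the groups. Among cytokinesis genes, Racgap1 was at 7.54, 3.44, 1.25 and 5.82 CPM and at 3.06, 5.21, 2.06 and 5.26 CPM (-0.18, SE 0.39). Cit was at 1.93, 0.452, 0.656 and 1.55 CPM and at 0.830, 1.76, 0.447 and 1.404 CPM (-0.017, SE 0.46). The largest differences of this role in each direction were Ect2 at 7.89, 2.35, 1.90 and 5.43 CPM and at 3.96, 6.73, 3.67 and 6.67 CPM (0.28, SE 0.35), and Anln at -0.28 (SE 0.39), with groups that overlapped in both genes.

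The members moved together from library to library within the groups. Over pairs of the 41 tested genes, the median correlation of log2 CPM after subtracting group means was 0.80 across 8 libraries, beside -0.000264 over pairs of all genes tested, and 83.9% of pairs exceeded 0.5, beside 13.5% of all pairs. The points share the same 8 libraries and their depth. Cenpf had the highest median correlation with the other genes, 0.92, followed by Cdk1 at 0.91 and Ect2 at 0.91. Bub1, at -0.40, and Kif15, at 0.15, were lowest, then Bub1b at 0.50. DNA replication genes had a like order of libraries after vehicle, with sums of 323, 236, 213 and 271 CPM, and of 220, 233, 216 and 236 CPM after ISRIB.

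Of the 74 further mitosis genes, edgeR called 0 of 50 tested after ISRIB, with 1 at an unadjusted p under 0.05. Mcm6, a subunit of the replicative helicase, was the only call among the 25 tested DNA replication genes, and was lower (-0.37, SE 0.075, adjusted p = 0.0155). Lyz1, a lysozyme gene on the list of 16 macrophage and monocyte markers, was at 2017, 3564, 2030 and 3946 CPM in ISRIB 1 to 4, so it was higher in ISRIB 2 and 4, which also had the higher sums of the 47 genes among ISRIB libraries. The other 15 markers summed to 73.0 to 94.4 CPM after vehicle and to 77.7, 85.85, 79.5 and 91.8 CPM in ISRIB 1 to 4, and Fcgr1, C1qa and C1qc were at 0 in all 8 libraries. None of the 4 macrophage and monocyte markers tested was called by edgeR, with 1 at an unadjusted p under 0.05. In ISRIB 1 to 4, endothelial markers summed to 56.8, 61.3, 53.3 and 60.2 CPM and lymphocyte markers to 15.8, 17.4, 15.9 and 17.3 CPM. Both sums were also higher in ISRIB 2 and 4. Airway markers (4231, 3343, 4095 and 2428 CPM) and alveolar type 2 markers (222020, 213590, 221750 and 214560 CPM) were lower in those libraries. Fibroblast markers did not divide the libraries this way. The part of these cells in the levels of the 47 genes was not tested.

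In promoter terms, 30 of the 31 genes with a TTTGAA match were called higher after bleomycin without the filter, with a median log2 fold change of 3.04. In the same fit 44 of all 47 genes were called higher, against 5.41% of 26897 genes. Of the 10 without one (Birc5, Bub1, Ccnb1, Cenpe, Cit, Melk, Mybl2, Ncaph, Nuf2 and Nusap1), 8 were called, with a median of 2.96 and a range from 0.17 to 5.22. Birc5, Ccnb1 and Cenpe among them held the variant TTTAAA, so not all of the 10 lacked a CHR spelling. Kif15 held a TTTGAA match near its start site and was not called, and Bub1 and Mybl2, also not called, held no TTTGAA match.

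Some counts are uncertain because gene models share exons and no source used here gives the strand setting used in counting. On the opposite strand, Kif20a shares 29.3% of its exon bases with Cdc23, Ube2c 22.8% with Tnnc2, Kif4 15.1% with Pdzd11, Ncapg 13.4% with Lcorl, Ccna2 12.5% with Exosc9 and Prc1 11.1% with Rccd1. Reads from such pairs cannot be told apart without strand, and other overlaps of the 47 genes were smaller.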

How the data were processed

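The authors deposited raw counts of reads per gene, 1 table for each kit. That unit follows from the values: whole numbers with unequal library sums. Poly(A) libraries were made from 3 ng of RNA with NEBNext Ultra, and total-RNA libraries from 0.35 ng with the SMARTer Pico v2 kit, per the labels' protocols. The submitters' processing notes name build mm10, bcl2fastq 2.19.1, FastQC, Trimmomatic 0.36, STAR 2.6.0 and HTSeq 0.11.2. No source used here gives the strand setting or the annotation.

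Symbols, positions and exon lengths came from GENCODE M21 (GRCm38), which gave a symbol to 42462 of 43430 gene rows. Each comparison was fitted within its kit in edgeR 4.0.16 (R 4.3.3): filterByExpr (minimum count 10, minimum total 15), TMM factors, the two-sided quasi-likelihood F test on group, and Benjamini-Hochberg adjustment over all genes tested. The SE is the unshrunk log2 fold change over the root of F. DESeq2 1.42.0, limma-voom (limma 3.58.1), other scaling, no filter, a replicate block, leaving out ribosomal-RNA-like models and leaving out each library were alternatives. The procedure was tested on simulated data.

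The members and lists were chosen with earlier results of these data known. Values in every library were given for 10 anchor genes, for the members called (at most 15, by size and p) and for the extremes of each role. Further members, among them Aurka, Ccna2, Bub1, Bub1b, Kif15, Ndc80, Ttk and Mybl2 and, for bleomycin, Cdc20 and Smc4, were named after their values were seen.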

Additional observations from a re-analysis of the deposited data

Results flagged for a closer look

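In each group, a library was singled out when its gap to the nearest library was a large part of the group's range (Dixon's criterion), which chance does in about 1 in 20 groups. That rate is for normally distributed values. Both groups of many genes were screened, so some of the libraries listed here would be singled out by chance. Bleomycin 2 was high for 5 genes: Ccnb1 at 7.76 CPM (next 2.94), Melk at 13.2 CPM (next 6.35), Tpx2 at 38.4 CPM (next 20.1), Racgap1 at 26.2 CPM (next 13.8) and Cep55 at 19.3 CPM (next 11.4). Naive 1 was high for Ccnb1 at 0.335 CPM, which is 1 count where the other naive libraries had 0, and for Prc1 at 10.4 CPM (next 9.91). Naive 2 was high for Aurkb at 0.427 CPM, with 0 in the others. Where all other libraries of a group hold 0 counts, any count meets the criterion, as for Ccnb1 and Aurkb.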

How the results depend on the processing

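After bleomycin, the number of the 47 genes called higher was 39 with edgeR, DESeq2 and limma-voom, and 34 to 42 when single libraries were left out, with 0 called lower in every setting run. The number of the 47 genes tested also differed between settings. Over all genes, edgeR called 1259 higher, DESeq2 1371 and limma-voom 1024. Leaving out single libraries gave 874 to 1361 genes called higher and 680 to 1223 called lower. Bub1 ranged from -0.088 to 0.31. After ISRIB, no setting called a gene of the 47 except the fit without a filter, which called 1 lower. Over all genes, DESeq2 called 204 higher and 204 lower and the fit without a filter 321 and 327, and leaving out single libraries gave 39 to 146 and 47 to 123. The median of the 47 then ranged from -0.41 to 0.19.

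Signs of single genes after ISRIB turned often. With limma-voom, Cdk1 was at 0.14, Foxm1 0.12, Aurkb -0.089, Mki67 0.24, Top2a 0.23, Nusap1 0.062, Racgap1 0.10 and Cit 0.049. Leaving out single libraries gave ranges that crossed 0: Ccnb1 -0.52 to 0.18, Cdk1 -0.40 to 0.36, Plk1 -0.66 to 0.16, Foxm1 -0.41 to 0.43, Cenpf -0.61 to 0.12, Mki67 -0.41 to 0.67, Top2a -0.49 to 0.51, Smc2 -0.39 to 0.12, Nusap1 -0.71 to 0.39, Anln -0.68 to 0.10, Racgap1 -0.53 to 0.21, Cit -0.33 to 0.36, Cdca8 -0.49 to 0.58, Cdca3 -0.31 to 0.76, Smc4 -0.055 to 0.072, Hmmr -0.32 to 0.77, Aurkb -0.34 to 0.62, Cenpe -0.12 to 0.50, Ect2 -0.0026 to 0.74 and Melk -0.79 to 0.11. The cause of these turns was not tested.

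Replicate numbers did not pair the libraries (same-number correlations of -0.11 to 0.08 and -0.04 to 0.05). With a replicate block, ISRIB called 150 genes higher and 127 lower and none of the 47, with Aurkb at -0.014 and Mki67 at 0.035. For bleomycin, where the block drops bleomycin 5, it called 1086 genes higher and 1013 lower over all genes. Of the 47 genes, 37 were tested and 34 called higher, and Bub1b was not called (adjusted p = 0.0508). Counts of 1 to 6 per library limit what the lowest genes can show.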
